A study of Oryza sativa with 6 samples.

Results

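The loci described here are genes of the rice cultivar N22 for which 2 isoform models were reconstructed and for which both models were used about evenly in developing seeds. The loci were selected on their measured isoform shares. A locus was included when it belonged to the loci numbered with the prefix B (13225 of the 13343 loci), carried exactly 2 models, had at least 100 estimated counts in every library, and gave each model at least 30% of its counts in all 6 libraries. Loci with a mean of 1000 CPM (counts scaled to a common library size with edgeR's TMM factors) or more were left out, which removed no evenly used locus. These limits were met by 202 loci, which is 1.51% of the 13343 gene loci in the N22 files and 10.01% of the 2017 two-model loci that passed the limits on counts and CPM. Together, the 202 loci took 1.85% to 1.87% of the estimated counts in the control libraries and 1.57% to 1.66% in the stressed libraries, before TMM scaling. With TMM scaling, their summed expression was 15482 to 17001 CPM in control and 18152 to 18733 CPM under stress.

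N22 is an aus cultivar that was raised under field conditions in the Philippines during a dry season. Developing seeds were harvested at early grain filling from 3 control samples, whose plants stood in flooded plots, and from 3 samples of plants that met heat together with drought, the latter imposed under a rainout shelter. All plants were of the same cultivar and the samples were biological replicates, and whether a replicate pooled several plants is not given in the sources used here. Directional single-end RNA-Seq libraries were quantified against the N22 transcriptome, and their estimated counts summed to between 20623937 and 24625001 per library. That transcriptome was built from pooled RNA of several organs and treatments, so an isoform model need not have been first seen in seeds. Seeds are a mixture of tissues, and fewer cells of a type and less RNA per cell cannot be told apart.

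A plant gene gives rise to several transcripts when introns are spliced differently or retained, or when transcription starts or ends at different places. Intron retention is the most common kind of alternative splicing in plants. During early grain filling, the endosperm cells of a rice seed expand and begin to store starch and protein, and heat and drought at this stage are known to disturb filling.

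The identifiers of the 202 loci are running numbers of the N22 transcriptome. The sources used here do not pair these numbers with gene names, functions or sequences, so none is given, and the seed tissue could not be checked against its marker genes. What the files hold for every isoform model is its length, its strand and its values in each library.

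In the chosen loci, the longer model had a median length of 1656 bp and the shorter one 1224 bp. The difference between the 2 models of a locus ranged from 8 bp to 2725 bp, with a median of 274 bp (quartiles 152 bp and 579 bp). Among the other two-model loci within the limits, the median difference was 189 bp (quartiles 114 bp and 402 bp). This comparison of lengths was not tested. Both models of a locus always lay on the same strand, and 106 of the 202 loci were on the minus strand. The largest difference was found for B4694, with models of 3821 bp and 1096 bp, followed by B4982 (3487 bp and 1303 bp) and B492 (3124 bp and 1212 bp). At the other end, the models of B707 (2272 bp and 2264 bp) and of B12638 (851 bp and 843 bp) differed by 8 bp each, and those of B13099 (1627 bp and 1611 bp) by 16 bp.

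Expression of the 202 loci spanned 5.30 to 988 CPM, with a median of 45.4 CPM (quartiles 24.1 and 96.3), and 50 of them reached 100 CPM. The most abundant, B8510, had 1205, 743 and 850 CPM in control replicates 1, 2 and 3, and 1050, 969 and 1108 CPM in stressed replicates 1, 2 and 3. Its groups overlapped. B4025 had 1038, 784 and 577 CPM in control and 602, 783 and 761 CPM under stress, again with overlapping groups. B9909 had 636, 593 and 520 CPM in control and 392, 494 and 577 CPM under stress, and also here the ranges of the conditions crossed. None of these 3 loci passed the test between conditions (edgeR, adjusted p = 0.587, 0.621 and 0.309). B2960, the third most abundant, did pass it and is described with the differentially expressed loci.

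The share of the longer model is the value by which the loci were chosen, so its level is a description and was not tested. Averaged over the 6 libraries, it ranged from 36.4% to 67.2% of the counts of a locus, with a median of 50.2%. The median per library was 51.2%, 52.6% and 46.8% in control replicates 1, 2 and 3, and 51.7%, 50.9% and 50.4% in stressed replicates 1, 2 and 3. Control replicate 3 thus had the lowest median of all libraries. In this library, the longer model was above 50% of the counts at 77 loci, against 102 to 118 loci in the other libraries. In 113 of the 202 loci, its longer-model share was the lowest of the 3 control libraries, compared with 39 loci for control replicate 1 and 50 loci for control replicate 2. Among the other two-model loci within the limits, control replicate 3 was lowest at 621 of 1815 loci (34.2%), and control replicates 1 and 2 at 472 and 471. Loci with a tie for the lowest share stay among the 1815 but count for no library, so the 34.2% is not on the same footing as the 113 of 202.

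**Figure D1:**
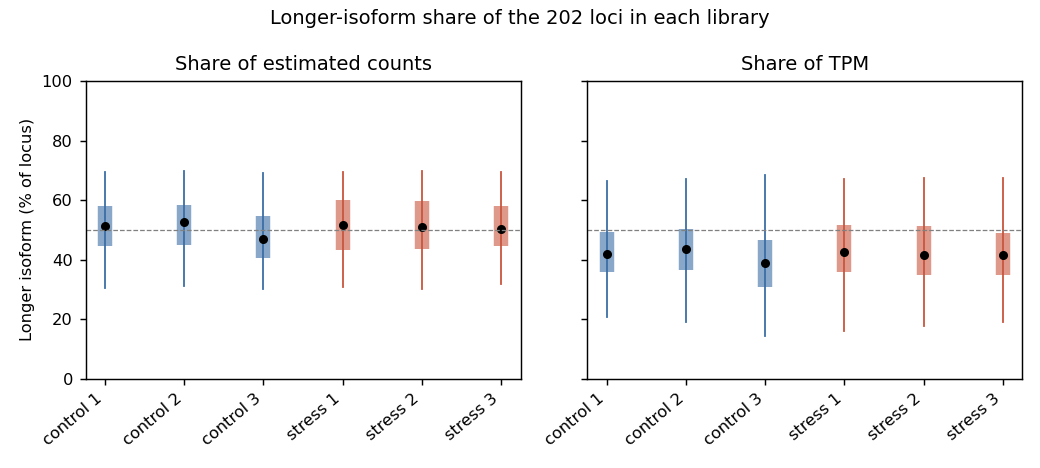
Share of the longer model in each library over the 202 loci, as a percentage of estimated counts (left) and of TPM (right), in control (blue) and stress (red). Dots are medians, thick bars run from the lower to the upper quartile and thin lines from the lowest to the highest locus; the count medians lie between 46.8% and 52.6%, with control replicate 3 the lowest, and the TPM medians between 38.8% and 43.6%.

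Even use of reads was not the same as even use of molecules, because a longer transcript yields more reads. In TPM, which corrects for transcript length, the longer model had a median share of 42.5%, and the shorter model was above 50% at 167 of the 202 loci. The shift follows from the length correction and grew with the length difference. At the 50 loci whose models differed by up to 150 bp, the median TPM share of the longer model was 47.0%. For the 26 loci with a difference above 1000 bp, it was 34.6%, although their median share of counts was 52.3%. B4694 is the extreme case, where the longer model held 55.6% of the counts and 25.01% of the TPM. When the limit of 30% was applied to TPM shares in every library, 132 of the 202 loci still met it.

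At 144 of the 202 loci (71.3%), the model with more counts was not the same one in every library. The longer model led in all 6 libraries at 29 loci, and the shorter one in all 6 at another 29. B3997 shows such a change of leader. Its longer model took 52.3%, 55.8% and 40.1% of the counts in control replicates 1, 2 and 3, and 51.6%, 55.6% and 44.5% in stressed replicates 1, 2 and 3. At B12638, whose models differ by 8 bp, the same share was 34.5%, 49.4% and 46.7% in control and 38.6%, 60.1% and 37.5% under stress. Within a condition, replicates of B12638 thus lay further apart than the 2 conditions did.

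The standard deviation of the longer-model share within conditions had a median of 6.24 percentage points (quartiles 4.18 and 8.46). This spread is that of separate biological samples and is bounded by the limits on the share. By expression, the median was 7.16 points in the 63 loci under 30 CPM and 5.80 points in the 89 loci from 30 to under 100 CPM. In the 50 loci with 100 CPM or more, it was 5.44 points. By length difference, the median was 7.38 points up to 150 bp, 6.31 points from there to 300 bp, 5.60 points from there to 1000 bp and 6.19 points above 1000 bp. The model counts were estimates. At 177 of the 202 loci they were not whole in any library (tolerance 0.01 counts), as is the case when reads that match both models are divided between them. The same held for 998 of the other 1815 two-model loci. A model with 0 counts has a whole count, and the share rule keeps such models out of the 202 loci. The counts of 177 and 998 are therefore not on the same footing.

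The coefficient of variation within conditions had a median of 10.9% for the locus, 18.1% for the longer model and 17.3% for the shorter model. It was smaller for the locus than for both of its models at 136 of 202 loci. The locus counts were whole in all 6 libraries at 174 of the 202 loci. The remaining 28 loci included B2960, B9221 and the abundant B8510 and B4025, and reads divided with another locus can enter their totals.

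The limits on the share cut through a continuous range. Just inside was B2477, whose longer model fell to 30.03% in control replicate 3 and otherwise took between 41.3% and 51.9%. B12976 and B2979 followed, with lowest shares of 30.1% each. Just outside was B12916, whose shorter model reached only 29.9% in stressed replicate 3, and B12527 and B12296 had lowest shares of 29.8% and 29.7%.

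Whether the loci changed in total expression under combined heat and drought was tested on the summed counts of both models, in a single fit over all 12726 gene loci with enough counts. All 202 loci entered this fit. A locus counted as called, that is differentially expressed, if its Benjamini-Hochberg adjusted p in edgeR's quasi-likelihood fit was under 0.1 and its log2 fold change was 1 or more, or -1 or less. Of the 202 loci, 11 were called (5.45%), 9 higher and 2 lower under stress. Over all loci tested, 10% were called, 4.80% higher and 5.23% lower. Among the 1815 other two-model loci within the limits, 129 were called (7.11%), 94 higher and 35 lower. The minimum of 100 counts in every library keeps out loci that are close to 0 in either condition. The counts of calls, in total and in each direction, therefore cannot be set against those of all loci.

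Smaller changes were frequent. At an adjusted p under 0.1 without a minimum fold change, 86 of the 202 loci passed (42.6%), 57 higher and 29 lower, against 38.6% of all loci tested, 19.6% higher and 19.0% lower. Of the other 1815 two-model loci within the limits, 764 passed (42.1%), 25.6% higher and 16.5% lower, so the share of the 202 loci was close to that of these loci. The 3 stressed libraries were separated from the 3 control libraries, on either side, at 95 loci (47.0%), where the share was 45.7% over all tested loci and 49.4% over the other two-model loci. The log2 fold changes of the 202 loci ranged from -1.48 to 1.72 with a median of 0.09, while the median over all tested loci was -0.02 and that over the other two-model loci was 0.04. The split by direction depended on the scaling of the libraries. When libraries were scaled by their size alone, the median of all tested loci moved to -0.40, 3 of the 202 loci were called higher and 9 lower, and at the adjusted p alone 20 were higher and 107 lower. Relative to the median of all tested loci, the median of the 202 loci was higher by 0.11 on the log2 scale with TMM factors and by 0.11 with scaling by size alone, but limma on TPM gave 0.05 with a pseudocount of 1 TPM and 0.09 with 0.1 TPM, on the log2(TPM + pseudocount) scale.

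**Figure D2:**
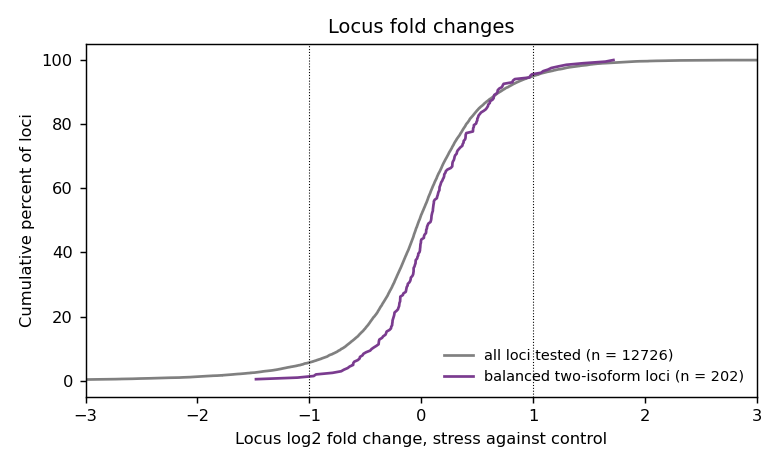
Cumulative distribution of the log2 fold change of locus expression (stress against control, TMM scaling) for the 202 balanced two-model loci (purple) and all 12726 loci tested (grey); dotted lines mark a log2 fold change of -1 and 1. The 202 loci run from -1.48 to 1.72 with a median of 0.09, while some of the other loci lie beyond the axis.

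The strongest increase was that of B12346, with models of 865 bp and 670 bp. It had 90.5, 91.4 and 56.3 CPM in control replicates 1, 2 and 3, and 326, 267 and 189 CPM in stressed replicates 1, 2 and 3. Every stressed library lay above every control library, and replicate 3 was the lowest of each condition. The log2 fold change was 1.72 (SE 0.24; edgeR, adjusted p = 0.00108). The longer model had 30.1 to 62.8 CPM in control and 117 to 206 CPM under stress, and the shorter one 26.2 to 35.8 CPM and 72.5 to 120 CPM, so that neither overlapped between the conditions.

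B11662, with models of 1595 bp and 1456 bp, had 32.0, 49.5 and 38.2 CPM in control and 126, 120 and 128 CPM under stress, so that the stressed libraries were nearly equal. The log2 fold change was 1.64 (SE 0.16; edgeR, adjusted p = 9.17e-05). Its longer model took 61.6%, 67.3% and 44.4% of the counts in control and 47.5%, 58.7% and 62.7% under stress. The locus total was therefore well separated while the division between the models varied within each condition.

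For B11073, with models of 1745 bp and 1262 bp, 26.7, 29.97 and 17.0 CPM were measured in control and 79.4, 71.0 and 50.3 CPM under stress, without overlap (log2 fold change 1.45, SE 0.23; edgeR, adjusted p = 0.00245). B1514, with models of 1964 bp and 1849 bp, had 17.7, 21.5 and 14.3 CPM in control and 52.6, 47.2 and 31.7 CPM under stress (log2 fold change 1.29, SE 0.21; edgeR, adjusted p = 0.00173). Both of these loci were lowest in replicate 3 of each condition. B3344, with short models of 757 bp and 614 bp, had 35.9, 28.5 and 21.5 CPM in control and 74.7, 70.4 and 55.6 CPM under stress (log2 fold change 1.22, SE 0.19; edgeR, adjusted p = 0.00126). The division of B3344 between its models hardly moved, with 47.1% ± 2.71 for the longer model in control and 47.6% ± 1.02 under stress (SD, n = 3 each).

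Among the more abundant loci, B6222 (1932 bp and 1862 bp) had 133, 141 and 85.4 CPM in control and 292, 270 and 241 CPM under stress, a log2 fold change of 1.16 (SE 0.19; edgeR, adjusted p = 0.00141). B2960 (1735 bp and 1687 bp) had 463, 386 and 305 CPM in control and 1004, 825 and 623 CPM under stress, a log2 fold change of 1.09 (SE 0.22; edgeR, adjusted p = 0.0041). The lowest stressed library of each of these loci was above its highest control library. At B2960 the difference was larger for the longer model, which went from 195, 205 and 123 CPM to 669, 449 and 280 CPM, whereas the shorter one went from 268, 181 and 182 CPM to 335, 376 and 343 CPM. Its longer-model share was 45.2% ± 6.89 in control and 55.3% ± 10.8 under stress (SD, n = 3 each), and the groups overlapped.

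B9245 (1079 bp and 485 bp) had 27.0, 21.4 and 11.6 CPM in control and 59.6, 40.6 and 31.3 CPM under stress, a log2 fold change of 1.13 (SE 0.34; edgeR, adjusted p = 0.0404). The remaining increased locus, B2724 (1568 bp and 1228 bp), had 28.7, 27.7 and 18.9 CPM in control and 65.3, 47.7 and 45.0 CPM under stress, a log2 fold change of 1.07 (SE 0.19; edgeR, adjusted p = 0.00267). It is named here after its values were seen, to complete the called loci. In both loci, control replicate 3 was the lowest library.

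Of the 2 decreased loci, B1776 (1753 bp and 1505 bp) had 31.0, 34.1 and 28.2 CPM in control and 10.8, 13.1 and 9.60 CPM under stress. The log2 fold change was -1.48 (SE 0.15; edgeR, adjusted p = 0.000134). Neither model overlapped between the conditions: the longer one went from 11.8, 17.9 and 14.4 CPM to 5.06, 7.54 and 5.20 CPM, and the shorter one from 19.3, 16.2 and 13.8 CPM to 5.78, 5.55 and 4.40 CPM. B2767 (865 bp and 774 bp) had 212, 239 and 413 CPM in control and 93.3, 143 and 165 CPM under stress, where control replicate 3 stood above all other libraries (log2 fold change -1.11, SE 0.29; edgeR, adjusted p = 0.0201).

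**Figure D3:**
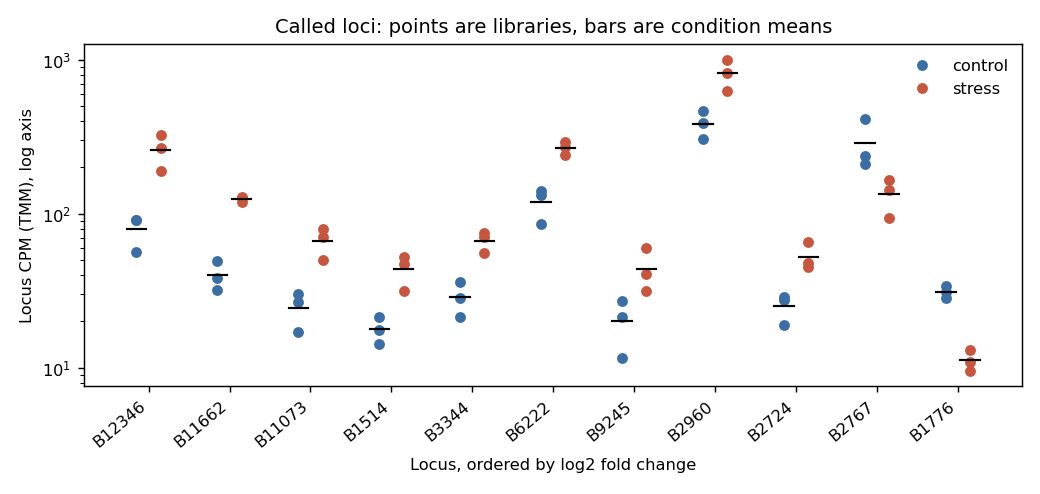
CPM (TMM-scaled, log axis) of the 11 differentially expressed loci in each control (blue) and stressed (red) library, ordered by log2 fold change; black bars are condition means. In every one of these loci the 3 stressed libraries lie on the same side of the 3 control libraries, from B12346 with a log2 fold change of 1.72 to B1776 with -1.48.

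Several of these calls depended on single libraries or on the scaling of the libraries. Without control replicate 3, 7 of the 202 loci were called, and B6222, B9245, B2960, B2724 and B2767 dropped below the minimum fold change (log2 fold changes of 0.96, 0.85, 0.93, 0.89 and -0.76). Without stressed replicate 1, 8 were called, and B9245, B2960, B2724 and B2767 were no longer among them (log2 fold changes of 0.85, 0.91, 0.89 and -0.90). The TMM factors were 1.101, 1.128 and 1.197 in control and 0.842, 0.884 and 0.904 under stress. With library size only, B1514, B3344, B6222, B9245, B2960 and B2724 had log2 fold changes of 0.91, 0.85, 0.79, 0.75, 0.71 and 0.69. They were also below the minimum in both limma fits on TPM. B11073 stayed called with library size only (1.07), but not with limma. With library size only and in both limma fits, B12346, B11662 and both decreased loci stayed called.

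In each of the 11 called loci, both models moved in the direction of the locus without overlap between the conditions. Over all 202 loci, this held for 41 (20.3%), 31 higher and 10 lower, against 8.58% of all two-model loci within the limits. The rule itself bears on this count, since a model that must hold between 30% and 70% of the locus cannot move far from its total and cannot be close to 0. At 56 further loci (27.7%), only 1 of the 2 models was separated between the conditions. The same held for 710 of the other 1815 two-model loci within the limits (39.1%).

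Differences of the longer-model share between the conditions are bounded by the rule, and were described without a test. The mean share under stress minus that in control ranged from -23.0 to 26.5 percentage points. In absolute terms, the median difference was 3.17 points, and at 27 loci (13.4%) it exceeded 10 points. Of the other 1815 two-model loci within the limits, which the share rule does not bound, 351 (19.3%) exceeded 10 points. The groups did not overlap at 23 of the 202 loci (11.4%), where all two-model loci within the limits gave 10.8%. At 15 of these 23 loci the longer model was higher under stress, and at 8 it was lower. The longer model had the higher mean under stress at 119 of all 202 loci. Without control replicate 3, the library with the low longer-model shares, this number was 98, and leaving out any other library gave 109 to 132.

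**Figure D4:**
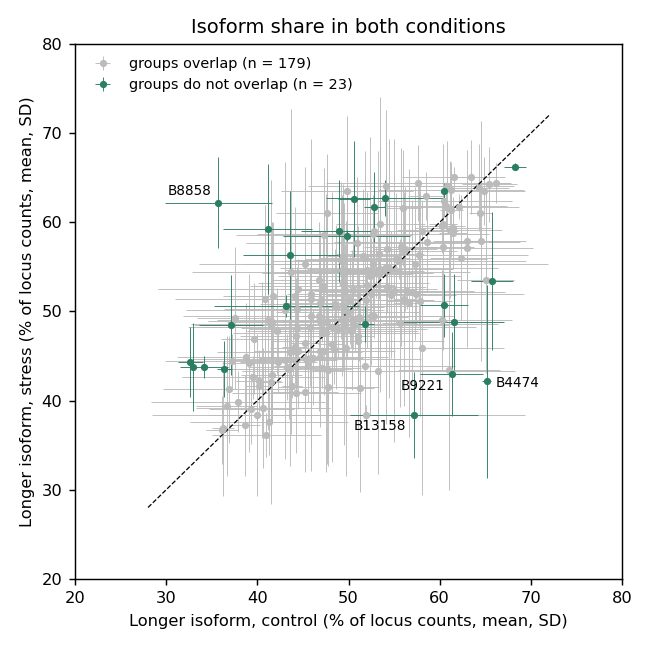
Mean share of the longer model in control (horizontal axis) and under stress (vertical axis), in percent of the locus counts, for the 202 loci; error bars are SD over 3 libraries, and the dashed line marks equal shares. Green points are the 23 loci whose groups do not overlap, including B8858 above the line (35.7% and 62.2%) and B4474 below it (65.1% and 42.1%).

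The largest difference in share was that of B8858, with models of 1093 bp and 819 bp. Its longer model took 33.1%, 42.4% and 31.7% of the counts in control replicates 1, 2 and 3, and 61.0%, 57.8% and 67.8% in stressed replicates 1, 2 and 3. The leading model was thus the shorter one in every control library and the longer one in every stressed library. In CPM, the longer model went from 3.08, 2.98 and 3.13 to 6.31, 5.52 and 6.58, while the shorter one went from 6.25, 4.04 and 6.76 to 4.03, 4.02 and 3.13. The total of the locus did not pass the test, with 8.75 ± 1.52 CPM in control and 9.86 ± 0.419 CPM under stress (SD, n = 3 each, edgeR, adjusted p = 0.506). Leaving out any 1 library, the difference in share stayed between 23.7 and 29.8 points.

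B4474 (1567 bp and 1399 bp) shifted the other way. Its longer model took 64.6%, 65.6% and 65.2% in control and 51.3%, 30.2% and 44.9% under stress, so that the control libraries were nearly equal and the stressed ones spread widely. In CPM, the longer model had 63.7, 47.7 and 56.3 in control and 29.7, 20.1 and 24.4 under stress, and the shorter one had 34.9, 25.03 and 30.003 in control and 28.2, 46.5 and 29.9 under stress. Only the longer model was separated between the conditions. The locus total was lower under stress at the adjusted p alone (log2 fold change -0.53, SE 0.14; edgeR, adjusted p = 0.0166), below the minimum fold change. Without stressed replicate 2, the difference in share was -17.0 points in place of -23.0.

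B13158 (2734 bp and 1852 bp) shifted towards its shorter model, too. The longer one took 50.6%, 64.5% and 56.3% in control and 36.7%, 43.8% and 34.6% under stress. Its own CPM was similar in both conditions, with 4.45, 5.997 and 3.55 in control and 5.01, 5.71 and 5.62 under stress, and the shorter model went from 4.36, 3.29 and 2.75 to 8.62, 7.33 and 10.6 CPM. The locus total was higher under stress at the adjusted p alone (log2 fold change 0.81, SE 0.19; edgeR, adjusted p = 0.0079), but did not reach the minimum fold change. In the limma fits on TPM it did not pass the adjusted p (0.107 and 0.110, limma).

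At B9221, the models were far apart in length, with 1769 bp and 637 bp. The longer one took 58.7%, 60.0% and 65.2% in control and 38.9%, 41.9% and 48.1% under stress. Its CPM was 7.88, 7.01 and 8.96 in control and 6.47, 6.90 and 6.68 under stress, and that of the shorter model was 5.54, 4.66 and 4.79 in control and 10.2, 9.58 and 7.20 under stress. The models therefore separated in opposite directions. The locus counts of B9221 were whole in only 3 of the 6 libraries, so reads divided with another locus can enter these values. Because the shorter model has few bases for reads to fall on, the longer one held only 25.5% of the TPM on average over the 6 libraries. The locus total did not pass the test (adjusted p = 0.175, edgeR).

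**Figure D5:**
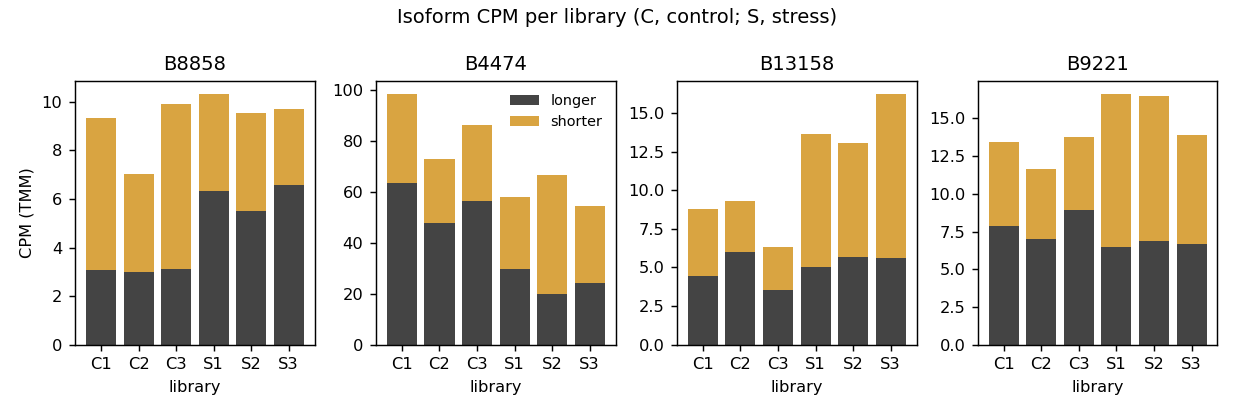
CPM (TMM-scaled) of the longer (dark) and the shorter (yellow) model in each library (C1 to C3, control; S1 to S3, stress) for the 4 loci with the largest difference in share; stacked bars add up to the locus total. At B8858 the longer model lies between 2.98 and 3.13 CPM in control and between 5.52 and 6.58 CPM under stress, and at B13158 the shorter one lies between 2.75 and 4.36 CPM and between 7.33 and 10.6 CPM.

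Opposite movement of the 2 models, each without overlap between the conditions, was found at 3 of the 202 loci (1.49%). Among the other 1815 two-model loci within the limits, it was found at 37 (2.04%). The 3 loci were B8858, B9221 and B1674, the last of which was named after its values were seen. At B1674 (1347 bp and 1165 bp), the shorter model had 29.0, 32.5 and 30.8 CPM in control and 20.1, 23.1 and 20.8 CPM under stress. The longer one had 14.2, 14.7 and 15.85 CPM in control and 19.1, 16.0 and 15.88 CPM under stress, so that its separation was within a few hundredths of a CPM. The longer-model share of B1674 was 32.6% ± 1.41 in control and 44.3% ± 3.93 under stress (SD, n = 3 each).

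Among the loci with mean shares nearest to 50%, the conditions were separated in some and not in others. B8163 (1719 bp and 1543 bp) had a mean longer-model share of 49.97% over the 6 libraries. It was made of 40.7%, 49.6% and 40.4% in control and 64.6%, 53.0% and 51.4% under stress, without overlap, at a locus total of 268 ± 41.1 CPM in control and 262 ± 15.3 CPM under stress (SD, n = 3 each). B1776, the most decreased locus, also averaged 49.99%, but with overlapping groups of 38.0%, 52.5% and 51.0% in control and 46.7%, 57.6% and 54.2% under stress. For B588 (2723 bp and 2603 bp), the mean was 50.1%, with 44.5%, 52.6% and 43.1% in control and 56.2%, 48.2% and 56.0% under stress.

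Of the loci with the largest length differences, B4694 illustrates control replicate 3. Its longer model, of 3821 bp, took 62.6%, 64.6% and 39.5% in control replicates 1, 2 and 3, and 55.7%, 57.7% and 53.6% under stress, while the locus total was 43.6 ± 3.84 CPM and 43.5 ± 6.59 CPM (SD, n = 3 each). B4982 had 50.7%, 52.8% and 38.5% in control and 41.4%, 44.2% and 51.1% under stress. B492 had 63.0%, 65.7% and 54.6% in control and 67.5%, 52.2% and 57.9% under stress. In each of these 3 loci the control replicate 3 value was the lowest of the control libraries. The total of B492 was lower under stress at the adjusted p alone (105.6 ± 4.10 and 72.2 ± 4.13 CPM, SD, n = 3 each, log2 fold change -0.55, adjusted p = 0.00515, edgeR), as was that of B3997 (86.9 ± 3.18 and 60.7 ± 2.11 CPM, log2 fold change -0.52, adjusted p = 0.00547, edgeR).

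At the 3 loci with the smallest length differences, control replicate 3 was not the lowest of the control libraries. At B707 the longer model took 45.8%, 36.5% and 50.5% in control and 42.9%, 46.4% and 33.3% under stress. At B13099 it took 53.6%, 59.9% and 59.8% in control and 44.8%, 42.7% and 66.2% under stress. Stressed replicate 3 alone stood above the control libraries there, and the other stressed libraries stood below them. The total of B707 was higher under stress at the adjusted p alone (41.1 ± 1.77 and 56.9 ± 11.1 CPM, SD, n = 3 each, log2 fold change 0.47, adjusted p = 0.0288, edgeR). It did not pass with library size only (log2 fold change 0.08, adjusted p = 0.623, edgeR). Without stressed replicate 1 it did not pass either (log2 fold change 0.30, adjusted p = 0.108, edgeR), nor did it in the limma fits on TPM (adjusted p = 0.875 and 0.873, limma).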

How the data were processed

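Developing seeds of N22 were sequenced by the authors, and the reads were quantified with kallisto 0.45 (version per the labels) against their PacBio Iso-Seq transcriptome of N22, collapsed with TAMA on the N22 genome. Transcripts that did not map were collapsed with Cogent and added to it, and only the 13225 loci with the prefix B were considered for membership. The deposited files hold estimated counts for each model in each library, and a further table has the same counts added up by gene locus. The deposited TPM values were made by the authors with kallisto and are relative to effective length. Read trimming and a strand setting of kallisto are not given in the sources used here.

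Here, estimated counts were summed per locus, rounded to whole numbers and tested with edgeR 4.0.16 in R 4.3.3 (filterByExpr with a minimum count of 10, TMM factors, robust quasi-likelihood test, Benjamini-Hochberg adjustment over all 12726 loci tested). Standard errors were derived from the log2 fold change and the F statistic. Calls needed an adjusted p under 0.1 with a log2 fold change of 1 or more, or -1 or less, after the thresholds of the study. The members and the rules were chosen with earlier results of these data known.

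Loci were named by rule: up to 8 called loci in each direction, the 4 most abundant, the 4 with the largest share difference, the 4 nearest to 50%, the 3 with the largest and the 3 with the smallest length difference, and the 3 on each side of the share limit. Alternatives were RLE factors, library size only, DESeq2 1.42.0, other filters, non-robust dispersions, limma 3.58.1 on TPM, the deposited locus table, a replicate block, other fold change minimums, leaving out each library and other membership limits. Leaving out each library for the counts and differences of isoform shares was added after the data were seen. On simulated counts, 199 of 12691 loci were changed by a log2 fold change of 1.5. The edgeR test recovered 94.5% of them, and 3.09% of its calls were unchanged loci. In the measured counts, 4910 of 12726 loci passed the adjusted p alone. Recovery with so many loci passing, or at log2 fold changes nearer to 1, was not tested. The choice of library scaling was not tested in this way either. Counts of replicates differed beyond counting error (chi-square over its degrees of freedom, 22.9 to 88.6), so none was counted as a repeat.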

Additional observations from a re-analysis of the deposited data

How the results depend on the processing

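Of the 202 loci, 11 were called with RLE factors, DESeq2, both other filters on low counts, non-robust dispersions and the deposited locus table, as in the main setting. The number was 12 with library size only (3 higher, 9 lower), 16 with limma on log2(TPM + 1) (2 higher, 14 lower), 17 with limma on log2(TPM + 0.1) (2 higher, 15 lower), 86 with no minimum fold change and 3 with edgeR's test against a minimum log2 fold change of 1 (glmTreat). Leaving out 1 library gave 7 to 16. With library size only, 5 of the 11 calls were shared, and with limma 4 in each case. limma was applied without TMM factors to loci with at least 1 TPM in 3 libraries. For all loci, 1277 were called in the main setting, 1985 with limma on log2(TPM + 0.1), 4910 with no minimum fold change and 195 with glmTreat, and 988 to 1573 when 1 library was left out. The number of loci meeting the membership rule was 318, 99 and 33 at a minimum share of 25%, 35% and 40%, 239 with shares from TPM (132 shared), 205 and 181 at 50 and 200 counts, 202 with no CPM limit, and 216 to 231 when 1 library was left out. Of 288 values of 16 named loci under alternatives, 2 were reversed: B707 had a log2 fold change of -0.026 and -0.027 with limma on log2(TPM + 1) and log2(TPM + 0.1), in which the median of all loci was -0.44 and -0.49. Further, 37 lost the call, 6 gained it, and 243 kept their direction and stayed called or not called as before. With no minimum fold change and with glmTreat, the log2 fold changes were those of the main fit and only the rule for a call differed. A locus that was not called and no longer passed the adjusted p alone stays among the 243, as B707 does with library size only.

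The main fit did not pair the samples by replicate number. Deviations of same-numbered samples correlated with r of 0.17, 0.029 and 0.24, and those of other pairs with r from -0.25 to 0.12. Control replicate 2 correlated best with stressed replicate 1 (0.12). These values do not settle whether the numbers pair the samples. With a replicate block, 12 of the 202 loci and 1306 of all loci were called. At the adjusted p alone, 93 of the 202 loci and 5601 of all loci passed with the block, against 86 and 4910 without it.

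B11662, B12346 and B1776 stayed called under every alternative run.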
